A study of Drosophila melanogaster with 26 samples.

Results

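Antibodies against ACF1 and against RSF-1 were each used for ChIP on Drosophila chromatin that lacks the protein the antibody was raised against, and the peaks called in these antigen-free experiments were compared. The libraries were chosen by genotype and antibody alone: ACF1 antibodies on acf1 chromatin (3 libraries) and the RSF-1 antibody on rsf-1 chromatin (1 library), that is 4 of the 26 libraries of the series. Their lists hold 14740 of the 50336 peaks of the series, and these merge into 8174 regions, of 13525 regions over all libraries. The series also contains 9 antibody libraries from wild-type (WT) embryos, 3 made with pre-immune serum on WT chromatin and 10 sequenced inputs.

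ACF1 and RSF-1 are the signature subunits of nucleosome remodelers, ACF and RSF, in which each is paired with the ATPase ISWI. Such enzymes slide and space nucleosomes. A peak in ChIP-seq is read as a place where the antigen sits on DNA, but in chromatin without the antigen a peak must have another source, so that a mutant is the strictest control for an antibody. When unrelated antibodies, used on unrelated mutants, call the same region, neither peak can come from the antigen its antibody was raised against.

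The acf1 embryos carried the allele labelled acf1-7 and the rsf-1 embryos that labelled rsf1-3602, in each case a deletion at the 5′ end of the gene left when a P-element was excised imprecisely. The strain is labelled Oregon-R for both, as for the WT embryos. All embryos were 0 to 12 h old, unstaged and pooled, so that each library averages over tissues and stages, and were fixed with 3.7% formaldehyde. Rb1 and Rb2 are rabbit polyclonal antibodies against the C-terminal region of ACF1, and the RSF-1 antibody is a rabbit polyclonal antibody against a fragment of RSF-1. On blots Rb2 cross-reacts weakly with other proteins. The Rb1 library and replicate 1 of Rb2 were made from chromatin batch 4, replicate 2 of Rb2 from batch 5 and the rsf-1 library from batch 9. No WT library shares a batch with these. Antibody, genotype and batch therefore change together between the acf1 and rsf-1 libraries and cannot be told apart, and the single rsf-1 library gives no replicate error for its group. The deletions themselves cannot be seen in peak lists, which give the position of each peak in Release 5 of the genome and neither reads nor scores.

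Between the acf1 and rsf-1 libraries, 4224 regions were called in both groups, 2828 in acf1 chromatin only and 1122 in rsf-1 chromatin only. The regions of both groups were 51.7% of all merged regions. Peaks counted as the same when they overlapped by at least 50 bp. Of the 7052 acf1 regions 59.9% had an rsf-1 peak (95% exact interval 58.7 to 61.0), and of the 5346 rsf-1 regions 79.0% had an acf1 peak (77.9 to 80.1). Intervals treat regions as independent and cover counting error only.

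The acf1 libraries contributed very unequally to this overlap. The Rb1 list held 1984 peaks, of which 575 or 29% were found in the rsf-1 list. Rb2 replicate 1 held 2226, of which 1235 or 55.5% were found, and Rb2 replicate 2 held 5184, of which 4177 or 80.6% were found. The rsf-1 list itself held 5346 peaks, and 4224 or 79% of them lay in at least 1 acf1 list. Both libraries of batch 4 were thus short lists with a low share, and the library of batch 5 resembled the rsf-1 library both in length and in content. Read from the rsf-1 side, 10.8% of its peaks were called in the Rb1 list, 23.1% in Rb2 replicate 1 and 78.1% in Rb2 replicate 2. The rsf-1 list was longer than the mean acf1 list by 0.91 on the log2 scale (exact permutation test over the 4 libraries, two-sided, p = 0.5). With 3 libraries against 1 this test cannot go below 0.25.

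The pattern of calls over the 4 libraries was dominated by a single class. Regions called in Rb2 replicate 2 and in the rsf-1 library, and in neither library of batch 4, numbered 2887, or 35.3% of all regions. The rsf-1 library alone accounted for 1122, Rb1 alone for 984, Rb2 replicate 2 alone for 846 and Rb2 replicate 1 alone for 524. Only 499 regions were called in all 4 libraries, and 728 in all but Rb1. Of the 4224 regions of both groups, 4181 included a peak of Rb2 replicate 2 and 43 did not. Without that library 1325 regions were common to both groups, and 39.9% of the acf1 regions and 24.8% of the rsf-1 regions had a counterpart.

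**Figure D1:**
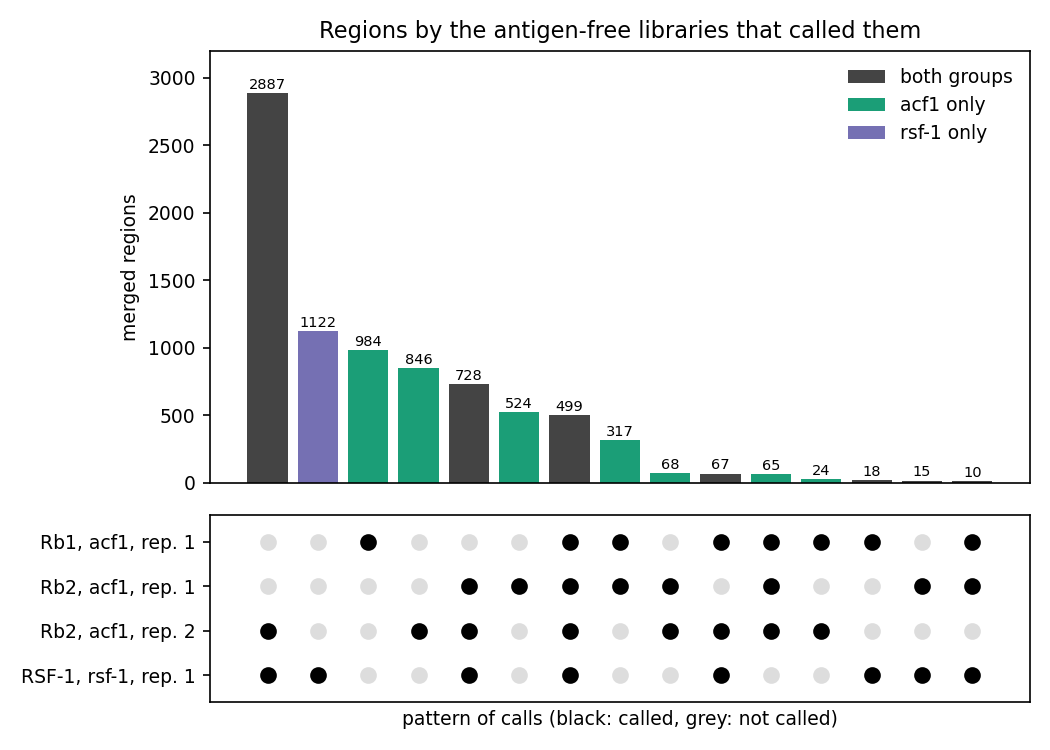
Number of merged regions (bars, vertical axis) for each of the 15 patterns of calls over the 4 antigen-free libraries, with filled dots below each bar marking the libraries that called the region. The highest bar, 2887 regions, is the class of Rb2 replicate 2 on acf1 chromatin with the RSF-1 antibody on rsf-1 chromatin, and 317 regions were called in both batch 4 libraries alone.

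Whether the overlap between unrelated antibodies differs from that between libraries of acf1 chromatin cannot be tested with these 4 libraries. As a share of the shorter list, Rb2 replicate 2 and the rsf-1 list overlapped by 80.6%, whereas the replicates of Rb2 overlapped by 60.2%. Rb1 overlapped by 44.8% with Rb2 replicate 1 of the same batch, by 32.3% with Rb2 replicate 2 and by 29.0% with rsf-1. The mean was 55.0% over the 3 pairs between groups and 45.7% over the 3 pairs within acf1, a difference of 9.27 percentage points (exact permutation over the 4 choices of the single library, p = 0.75). Without Rb2 replicate 2 the difference was -2.53 percentage points. When each list was limited to its first 1984 lines, Rb2 replicate 2 and rsf-1 shared 68.6% of the lines, the replicates of Rb2 47.5% and the batch 4 pair 40.8%, in the same order as over whole lists. The order of the remaining Rb1 pairs turned, with 17.3% for Rb1 and Rb2 replicate 2 and 18.1% for Rb1 and rsf-1.

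Regions called in more acf1 libraries were more often called in rsf-1 chromatin. An rsf-1 peak was found at 55.4% of the 5274 regions of a single acf1 library, at 66.3% of the 1214 regions of 2 libraries and at 88.5% of the 564 regions of all 3. Among the regions of a single acf1 library, the share was 77.3% for Rb2 replicate 2 (2887 of 3733) and 2.14% for the libraries of batch 4 (33 of 1541). The identity of the library thus went with the overlap, and the number of libraries was not separate from it. Of the regions of both batch 4 libraries without Rb2 replicate 2, 10 had an rsf-1 peak and 317 did not. For regions of both Rb2 replicates without Rb1 these counts were 728 and 68. For regions of Rb1 and Rb2 replicate 2 without Rb2 replicate 1 they were 67 and 24.

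In every list the peaks shared with the other group were more frequent near the head. The lines of each list do not run by position. They run as many stretches that are each sorted by position, 158 of them in the Rb1 list, 275 in Rb2 replicate 1, 857 in Rb2 replicate 2 and 854 in the rsf-1 list. What orders the stretches is not written in the files, and HOMER by default writes its peaks from the strongest to the weakest. Place is used here as the line number over the length of the list.

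At the head of every list nearly all peaks were shared with the other group. Of the first 100 lines, 86 of the Rb1 list, 97 of Rb2 replicate 1 and 99 of Rb2 replicate 2 had an rsf-1 peak, and 99 of the first 100 rsf-1 peaks had an acf1 peak. Of the first 1000 lines these counts were 550, 906, 946 and 983. The Rb1 list thus fell away within its first 1000 lines while the other lists did not.

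By deciles of the list, the share in the Rb1 list was 84.9% in the first, 71.4% in the third, 28.1% in the fourth and 7.58% in the fifth, and it stayed between 1.52% and 3.54% from the sixth on. Rb2 replicate 1 held 95.5% in the first and 85.7% in the fifth, then 70.4%, 21.6% and 5.41% in the sixth to eighth. In Rb2 replicate 2 the share was 98.1% in the first, 90.3% in the fifth and 39.4% in the last. In the rsf-1 list it was 99.1%, 86.9% and 43.8% in these. The lists of batch 4 ended in a long tail with almost no rsf-1 peaks, whereas the other lists kept a sizeable share to the end.

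**Figure D2:**
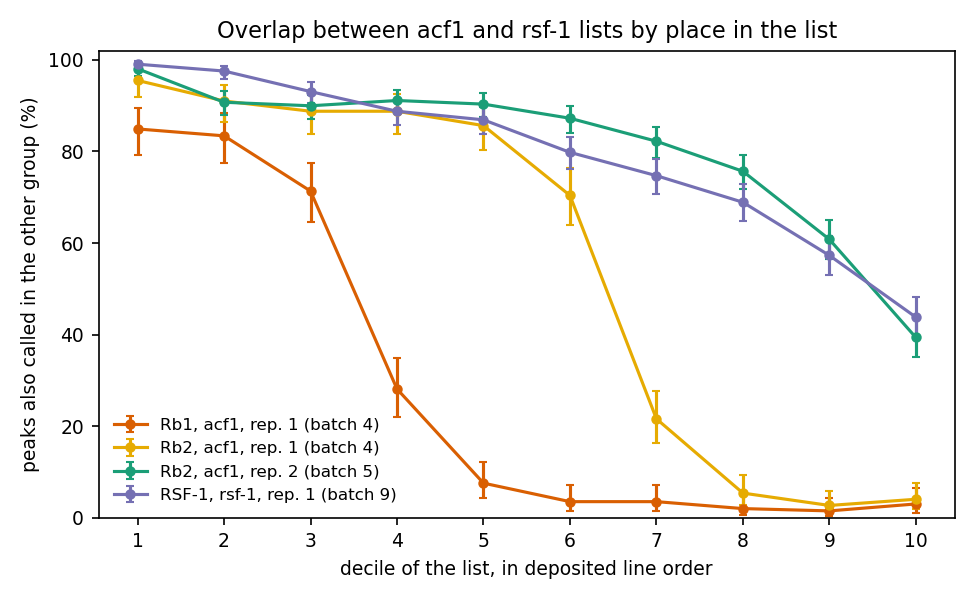
Percent of the peaks of each antigen-free list that were also called in the other group (vertical axis) by decile of the list in line order (horizontal axis), with exact 95% intervals. All lists start between 84.9% and 99.1%, the lists of batch 4 fall to 3.03% and 4.05% in the last decile, and the others to 39.4% and 43.8%.

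From the first to the last quartile, the share fell from 82.9% to 1.81% in Rb1, from 92.8% to 3.96% in Rb2 replicate 1, from 93.8% to 54.2% in Rb2 replicate 2 and from 97.5% to 53.7% in the rsf-1 list. The mean difference was 63.3 percentage points (39.6 to 88.9, n = 4 libraries, all in the same direction). An exact sign-flip permutation test over 4 libraries cannot go below 0.125, which is the value it gave. The rsf-1 regions were ordered in the same way by the number of acf1 libraries that called them: the median place in the rsf-1 list was 20.0% of the list for the 499 regions in all 3 acf1 libraries, 25.1% for the 805 in 2, 49.4% for the 2920 in 1 and 78.3% for the 1122 in none.

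Regions shared by a pair of lists also held related places in them. Across regions, the rank correlation of place (Spearman's rho) was 0.87 for the batch 4 pair (891 regions), 0.74 for the replicates of Rb2 (1360 regions) and 0.70 for Rb2 replicate 2 with rsf-1 (4181 regions). It was 0.58 for Rb2 replicate 1 with rsf-1 (1252 regions), 0.46 for Rb1 with Rb2 replicate 2 (655 regions) and 0.41 for Rb1 with rsf-1 (594 regions). Regions of a library are not independent replicates, and these values are descriptions.

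Calls in input also changed with place, though not in the same direction in every list. In the last quartile, 9.80% of the peaks of Rb2 replicate 2 and 10.2% of those of rsf-1 lay in a peak of at least 1 of the 10 inputs, against 1.77% and 2.17% in the first quartile. In the Rb1 list the order was the opposite, 15.9% in the first quartile and 3.63% in the last. In Rb2 replicate 1 the share was 7.18% in the first quartile, 14.6% in the third and 7.37% in the last. Among all merged regions, 4.81% had an input peak.

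By chromosome, the regions of both groups were a majority on every large arm and a minority on chromosome 4 and in sequence outside the arms. They were 50.3% of the 1405 regions on 2L, 56.9% of the 1407 on 2R, 51.2% of the 1535 on 3L, 62.8% of the 1603 on 3R and 53.5% of the 1395 on X. On chromosome 4, a small and largely heterochromatic chromosome, they were 25.9% of 212 regions (95% exact interval 20.2 to 32.4). They were 16.8% of the 328 regions in mapped heterochromatin and 23.3% of the 287 on U, the sequence that Release 5 does not place on a chromosome. The 2 mitochondrial peaks of the rsf-1 list had no acf1 counterpart.

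The low share on chromosome 4 came with the libraries of batch 4. On this chromosome, 13 of 117 Rb1 peaks (11.1%) and 9 of 79 peaks of Rb2 replicate 1 (11.4%) had an rsf-1 peak, against 54 of 67 (80.6%) for Rb2 replicate 2. Of the 73 rsf-1 peaks there, 55 (75.3%) had an acf1 peak. On the large arms the Rb1 share ran from 23.8% on 3L and 24.8% on 2L to 43.9% on 3R and 48.1% on X, and that of Rb2 replicate 1 from 48.4% on 2L to 74.5% on X. In Rb2 replicate 2 it stayed between 78.4% on X and 84.2% on 3R, and in the rsf-1 list between 75.3% on X and 82.7% on 3R. Over whole lists, chromosome X was thus the arm with the highest share in the batch 4 lists and with the lowest in the other lists. In Rb2 replicate 2 and rsf-1, X made up more of the last quartile (24.9% and 24.2%) than of the first (16.0% and 13.8%). Among peaks of like place, X was the lowest large arm in quartile 2 of Rb2 replicate 2 (88.0%). It was also lowest in the last quartile of rsf-1 (48.3%). In the remaining quartiles of these lists X was not the lowest large arm.

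**Figure D3:**
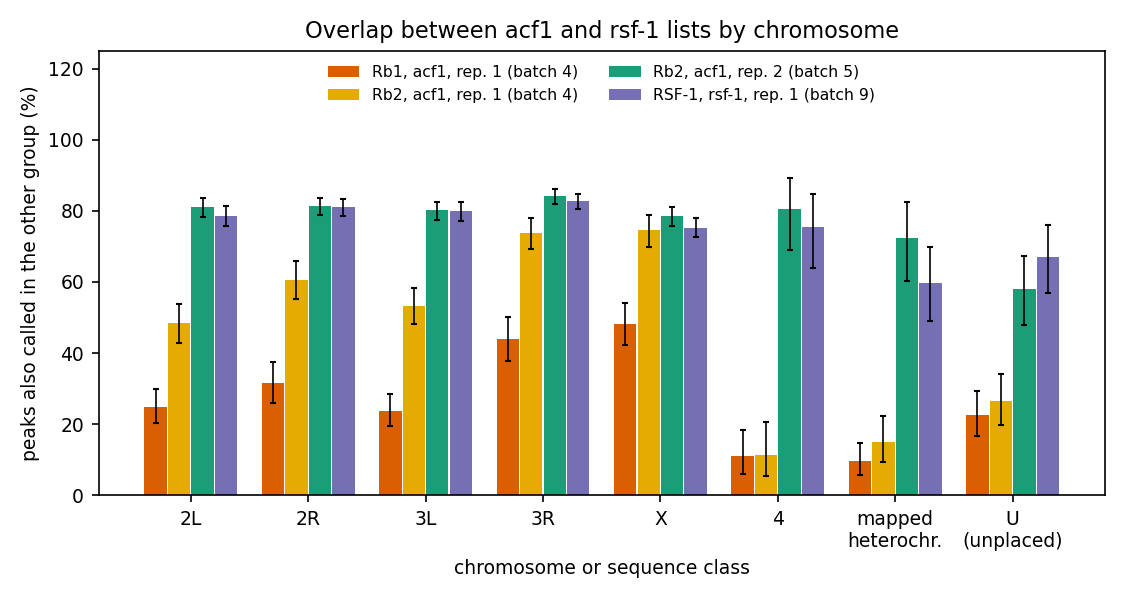
Percent of the peaks of each antigen-free list also called in the other group (vertical axis) on each chromosome arm, in mapped heterochromatin and on U, with exact 95% intervals. On chromosome 4 the batch 4 lists reach 11.1% and 11.4%, and the others 80.6% and 75.3%.

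Peaks outside the arms were 18.6% of the Rb1 list, 13.1% of Rb2 replicate 1, 3.40% of Rb2 replicate 2 and 3.63% of the rsf-1 list. They were shared less often than peaks on the arms in each list: 16.0% against 32.0% in Rb1, 21.3% against 60.6% in Rb2 replicate 1, 63.6% against 81.2% in Rb2 replicate 2 and 62.9% against 79.6% in rsf-1. The mean difference was 22.4 percentage points (16.0 to 39.3), and the exact sign-flip permutation test gave 0.125, the smallest value 4 libraries allow. Without Rb2 replicate 2 the rsf-1 list ran the other way, by -11.2 percentage points, as its overlap then rested on the batch 4 lists.

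Place and chromosome were linked. Of the peaks outside the arms, 74.4% of those in Rb2 replicate 2 and 66.5% of those in the rsf-1 list stood in the last quartile of the list. Within that quartile, the share on and outside the arms was 54.2% and 55.0% in Rb2 replicate 2 and 54.1% and 50.4% in rsf-1, so that the gap seen over the whole lists was small among peaks of like place. In the first quartile of the Rb1 list it remained, with 88.1% on the arms (429 peaks) and 49.3% outside them (67 peaks), and likewise in Rb2 replicate 1 with 94.9% (528 peaks) and 55.2% (29 peaks). In the second quartile of the Rb1 list, 67.1% of the 76 peaks on X had an rsf-1 peak. The other large arms stood at 15.1% of 93 on 3L, 16.0% of 50 on 3R, 18.9% of 106 on 2L and 29.9% of 67 on 2R. The third quartile of Rb2 replicate 1 held a like contrast, with 60.3% of 121 peaks on X. There the other large arms ran from 29.3% on 2L to 38.4% on 3R.

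Regions called only in batch 4 lay near the centromeres more often than the classes set against them here. There were 1825 of them, 64.5% of all acf1-only regions. On the 5 large arms, 31.3% of them fell within 2 Mb of the last peak on the centromere side (95% exact interval 28.8 to 33.8), whereas 5.88% of the regions of both groups did (5.18 to 6.65), as well as 5.91% of the rsf-1-only regions and 4.95% of the acf1-only regions with a peak of Rb2 replicate 2. Within that last class, the regions of all 3 acf1 libraries stood at 30.0% (9 of 30, 14.7 to 49.4). The figure for all merged regions was 10.4%. Limits of 1 Mb and 3 Mb gave 19.2% and 33.9% for the batch 4 regions, and 2.27% and 9.76% for the regions of both groups. Arm ends were taken as the outermost peaks of the series, because chromosome lengths were not used here.

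The arms differed in this respect. Within 2 Mb of the centromere side, regions of both groups were 23.3% of 180 regions on 2L, 23.4% of 205 on 2R and 18.1% of 149 on 3L, but 57.6% of 151 on 3R and 43.6% of 78 on X. Beyond 2 Mb they were between 54.1% on X and 63.4% on 3R. Over the 5 arms the values were 31.2% (27.9 to 34.6) and 57.9% (56.7 to 59.1). By library, the share of peaks with an rsf-1 peak was 10.9% within and 40.4% beyond 2 Mb in Rb1, and 25.7% and 68.8% in Rb2 replicate 1. In Rb2 replicate 2 it was 83.6% and 81.0%, and the rsf-1 list had an acf1 peak at 79.6% and 79.7%. Over whole lists, position along the arm thus went with the overlap in the batch 4 lists and hardly in the others. Position was linked to place in the list. Within 2 Mb lay 7.69% of the large-arm peaks of the first Rb1 decile and 43.7% of those of the last. These values were 4.85% and 39.4% in Rb2 replicate 1, 2.75% and 11.3% in Rb2 replicate 2, and 3.09% and 7.44% in rsf-1. Whether position went with the overlap among peaks of like place was not tested.

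The distance between peak centres differed between pairs of lists. Between peaks that overlapped by at least 1 bp, the median distance of centres was 18 bp for Rb2 replicate 2 and rsf-1 (4204 pairs), the shortest of the 6 pairs of lists. It was 23 bp for the batch 4 pair, 25 bp for the replicates of Rb2, 30 bp for Rb2 replicate 1 with rsf-1, 31 bp for Rb1 with Rb2 replicate 2 and 35 bp for Rb1 with rsf-1. Centres lay within 25 bp of each other in 63.1% of the pairs of Rb2 replicate 2 and rsf-1, and in 39.6% to 53.7% of the pairs of the other lists. All but 5 of the 14740 peaks are 200 bp wide, so that only peaks closer than this could overlap.

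**Figure D4:**
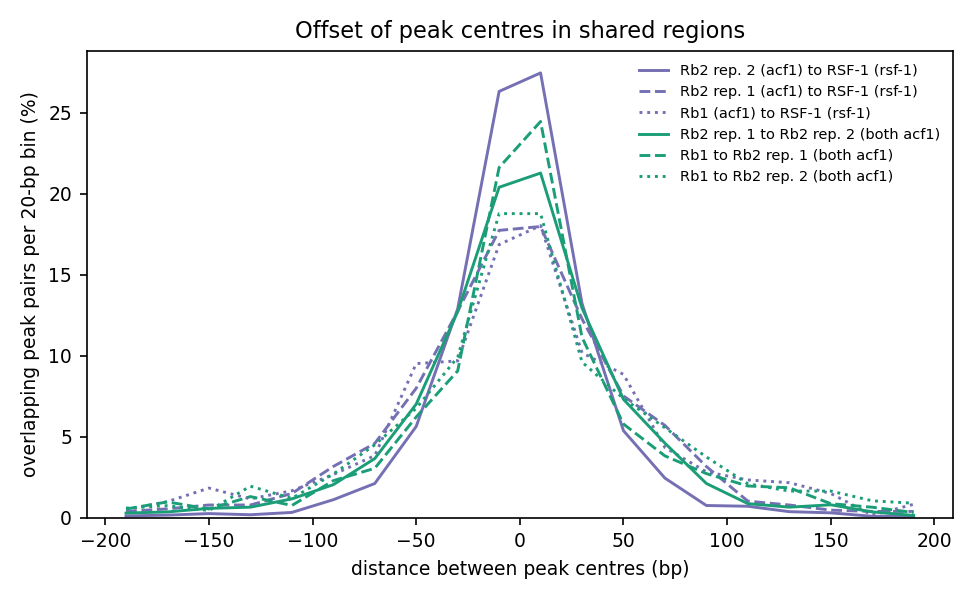
Distance between the centres of overlapping peaks (horizontal axis, bp) as percent of the pairs in each 20-bp bin (vertical axis), for the 3 pairs of lists between groups (purple) and the 3 within acf1 chromatin (green). The curve of Rb2 replicate 2 with rsf-1 is the narrowest, with a median absolute distance of 18 bp.

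A minority of the regions of a single group had a close neighbour in the other. Of the 1122 rsf-1-only regions, 25 touched or overlapped an acf1 peak by less than 50 bp, 16.6% lay within 500 bp of an acf1 peak and 24.2% within 1000 bp (median gap 3.57 kb). Of the 2828 acf1-only regions, 10.4% lay within 500 bp of an rsf-1 peak and 15.7% within 1000 bp (median gap 10.4 kb). Of the 846 regions of Rb2 replicate 2 alone, 22.3% lay within 1000 bp of an rsf-1 peak (median gap 6.69 kb), and of the 1825 batch 4 regions 11.2% did (median gap 13.2 kb). Lists differ in their number of peaks, so that these gaps are not on equal terms.

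Calls in WT chromatin, which the choice of libraries did not use, divided the classes of regions. A peak in at least 1 of the 9 WT antibody libraries was found at 77% of all merged regions, at 98.9% of the regions of both groups, at 75.0% of the rsf-1-only and at 45.2% of the acf1-only regions. All 499 regions called in all 4 mutant libraries were also called in WT. Of the 1825 batch 4 regions, 37.3% were called in WT. In replicate 3 of Rb2 on WT chromatin (batch 8) 31.6% of them were called, close to the 35.1% of all merged regions in that library. In replicates 1 and 2 of Rb2 they were called at 2.90% and 5.48%, where all merged regions were at 28.8% and 44.2%. In Rb1 they were at 2.96%, with all merged regions at 10.5%, and in the RSF-1 libraries at 1.97% and 6.08%, with all merged regions at 63.6% and 41.0%. Batch 4 regions thus lay below the share of all regions in each of these WT libraries, and least so in Rb2 replicate 3.

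The rsf-1-only regions were called in WT chromatin at 67.2% in RSF-1 replicate 1 and at 22.1% in RSF-1 replicate 2, against the 63.6% and 41.0% given above for all merged regions. A peak in at least 1 of the 7 ACF1 libraries on WT chromatin, 3F1 included, was found at 34.0% of them, against 63.0% of all merged regions. In Rb1 they were at 2.32% and in the replicates of Rb2 at 4.99%, 13.4% and 5.08%. RSF-1 replicate 1 was therefore the library among these in which the rsf-1-only regions reached the share of all regions. It called 97.3% of the regions of both groups and 11.7% of the acf1-only regions, so that the rsf-1-only regions lay between these. Regions of Rb2 replicate 2 alone were called at 27.2% in Rb2 replicate 2 and at 27.7% in RSF-1 replicate 1 on WT chromatin, below the 44.2% and 63.6% of all merged regions. These WT lists hold 1001 to 5636 peaks, RSF-1 replicate 1 being the longest, and were not matched in length. Over whole lists, the acf1 library of Rb2 replicate 2 had 84.0% of its peaks in RSF-1 replicate 1 on WT chromatin and 63.9% in Rb2 replicate 2 on WT chromatin, and the rsf-1 list had 90.9% and 59.4% in the same lists. Rb2 replicate 1 on acf1 chromatin had 75.0% of its peaks in Rb2 replicate 3 on WT chromatin, its highest share, as had Rb1 on acf1 chromatin with 51.4%.

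On the arms, 1.66% of the 4102 regions of both groups had an input peak and 0.34% a pre-immune peak, where all merged regions were at 1.73% and 1.68%. Outside the arms, 68.9% of the 122 regions of both groups had an input peak and 39.3% a pre-immune peak, where all merged regions were at 42.5% and 21.6%. For the regions called in all 4 libraries the split was wider still, with an input peak at 9 of 443 regions on the arms (2.03%) and at 51 of 56 outside them (91.1%). Of the 8174 merged regions 3.18% had a pre-immune peak. The batch 4 regions on the arms had one at 6.90% of 1463 (95% exact interval 5.66 to 8.33), above the regions of both groups (0.19 to 0.57).

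As a share of each list found in the rsf-1 list, the acf1 antibody libraries (29.0%, 55.5% and 80.6%) overlapped the inputs in range, which ran from 6.10% to 53.1% (median 35.9%, n = 10). The highest input was that of batch 9, the chromatin of the rsf-1 list itself. The next stood at 42.0% (acf1 input of batch 5). The means were 55.0% ± 25.8 (SD, n = 3) in the acf1 libraries and 32.0% ± 14.3 (SD, n = 10) in the inputs, batch 9 included. The difference of 23.0 percentage points did not pass the threshold of 0.05 (exact permutation test, two-sided, p = 0.077). On the arms the means were 57.9% ± 24.7 and 20.6% ± 9.89, a difference of 37.3 percentage points (exact permutation test, p = 0.010). Over the alternatives tried, p in this exact permutation test ran from 0.0035 to 0.60, and the difference was 10.2 percentage points without Rb2 replicate 2 and 36.0 without Rb1. Against the input of its own batch, Rb1 lay lower over all peaks (29.0% against 38.0%), whereas Rb2 replicate 1 (55.5% against 38.0%) and Rb2 replicate 2 (80.6% against 42.0%) lay higher. On the arms the antibody library was higher in each case (32.0% and 60.6% against 22.9%, and 81.2% against 22.6%). The pre-immune libraries were at 0%, 8.44% and 8.86%, below each acf1 library, with 1, 379 and 621 peaks. The difference of the means was 49.2 percentage points, and with 3 against 3 libraries the exact permutation test gave 0.1, the smallest value it allows.

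The share in the rsf-1 list was not shown to differ between acf1 and WT chromatin. With Rb1 it was 29.0% in acf1 and 75.8% in WT, and with Rb2 it was 55.5% and 80.6% in acf1 and 86.2%, 79.1% and 53.8% in WT, so that the Rb2 groups overlapped. The difference of the means was -18.7 percentage points (73.7% ± 13.9 in WT, SD, n = 4; exact permutation test, p = 0.31). Over 10 tests, the 7 comparisons and the 3 of list shares repeated on the arms, the exact permutation p-values adjusted by Benjamini-Hochberg ran from 0.10 to 0.75, the lowest for acf1 libraries against inputs on the arms.

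**Figure D5:**
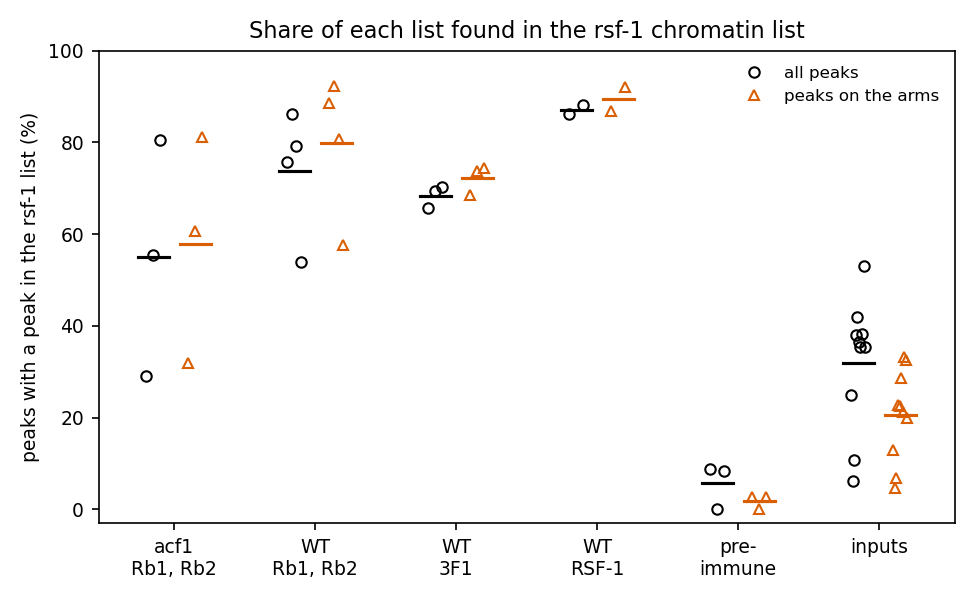
Percent of each list with a peak in the rsf-1 chromatin list (vertical axis) for acf1, WT, pre-immune and input libraries, over all peaks (circles) and on the arms (triangles), 1 symbol per library and a line at the mean. The acf1 libraries spread from 29.0% to 80.6%, within and above the range of the inputs (6.10% to 53.1%), and the pre-immune libraries lie at or below 8.86%. The highest input is that of the rsf-1 chromatin itself.

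Single regions of these classes were named, given by position in Release 5 (gene annotation of this release was not used here). Of the 499 regions called in all 4 libraries, 12.0% had an input peak and 8.22% a pre-immune peak. Both shares were above those of all merged regions, 4.81% and 3.18%. There were 439 of the 499 with neither. Those with the lowest mean place on 2L, 3L, 3R, X and 4 stood near the head of every list. The region chr3R:8453509-8453727 was on line 31 of the Rb1 list, line 2 of Rb2 replicate 1, line 5 of Rb2 replicate 2 and line 3 of rsf-1. The region chr3R:18182165-18182404 was on lines 50, 3, 4 and 8 in this order, and chr3R:778313-778556 on lines 42, 7, 3 and 23. These 3 regions were called in all 9 WT antibody libraries, as was chr2L:2037540-2037766 (lines 73, 5, 13 and 24). The region chr3L:1668649-1668865, on lines 54, 1, 2 and 15, was called in 8 of the 9.

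Regions of all 3 acf1 libraries without an rsf-1 peak numbered 65, of which 30 (46.2%) lay outside the arms, against 7.55% of all merged regions. They included 36 with an input peak (55.4%) and 21 with a pre-immune peak (32.3%), against 4.81% and 3.18% of all merged regions. Outside the arms, all merged regions were at 42.5% and 21.6%. For the 65 regions these peaks were not split by place on and outside the arms. On the arms considered for naming, those of lowest mean place included chr4:1284265-1284617. It was on line 23 of Rb1, line 323 of Rb2 replicate 1 and line 3251 of Rb2 replicate 2, and was called in 4 inputs and in no WT antibody library. The region chr3L:20816231-20816460 was on lines 63, 352 and 4063 and was called in 2 inputs. The region chr2L:22261078-22261346 held like places in all 3 lists, at 26.9%, 25.9% and 32.1% of their length (lines 533, 577 and 1666), and chr3L:673389-673624 (lines 283, 834 and 2925) and chr3R:17122442-17122692 (lines 404, 942 and 2772) stood at 14.3% to 56.4% of the lists. These 3 regions had no input peak and were called in 4, 2 and 6 WT antibody libraries.

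The rsf-1-only regions were rare near the head of the rsf-1 list, with 5 in its first decile. On the arms considered for naming (2L, 3L, 3R, X and 4), the foremost was chr3R:27894178-27894378 on line 77, called in 7 of the 9 WT antibody libraries. It was followed by chr3R:10566977-10567177 on line 284 and chr3R:16927405-16927605 on line 458, called in 2 and in 0 WT antibody libraries. The next were chr2L:8082955-8083155 on line 611 and chr3R:2232364-2232564 on line 649. None of these 5 had an input or pre-immune peak. Such peaks are rare on the arms, at 1.73% and 1.68% of all merged regions there.

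Line 1 of the lists held regions of different kinds. The first peak of the Rb1 list, in chrX:21803926-21804134, was on line 4530 of the rsf-1 list and was called in all 10 inputs. The first peak of the rsf-1 list, in chrX:21834806-21835077, was on line 2 of Rb1, line 24 of Rb2 replicate 1 and line 40 of Rb2 replicate 2, and was also called in all 10 inputs and in 2 pre-immune libraries. The first peak of Rb2 replicate 2, in chr2L:540568-540768, was on line 5 of the rsf-1 list, and was in neither batch 4 list and in no input. The first of Rb2 replicate 1 was the region on 3L given above.

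Among regions of both groups on the arms considered for naming, the largest shifts of place from rsf-1 towards the best acf1 library lay at the distal end of X. The region chrX:6386-6827 was on line 16 of Rb1 and line 5127 of rsf-1, chrX:13875-14142 on lines 8 and 5095, and chrX:11893-12174 on lines 6 and 4638. In Rb2 replicate 2 the same regions were on lines 3094, 1695 and 2230, at 59.7%, 32.7% and 43.0% of the list. They were called in 3, 10 and 8 of the 10 inputs. For shifts towards rsf-1, taking the best acf1 library favours regions that a single acf1 library called. Of the 2920 such regions of both groups, 2887 were those of Rb2 replicate 2. The largest shifts towards rsf-1 lay in regions of this kind: chr3L:23707973-23708198 was on line 4588 of Rb2 replicate 2 and line 972 of rsf-1, chr3L:23143508-23143736 on lines 4617 and 1257, and chr2L:4818147-4818364 on lines 4422 and 1190. None of these 3 had an input peak, where 1.73% of all merged regions on the arms had one.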

How the data were processed

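Peak lists of 26 ChIP-seq and input libraries from Drosophila embryos were used. Reads had been aligned by the authors with Bowtie 1.1.1 (unique hits, Release 5 of the genome), and HOMER had been run with its defaults to call peaks. The deposited values are the start and end position of each peak, 1 list per library, taken as they stand. Read numbers and scores are not given, so that the depth behind each list is unknown and a missing peak means only that none was called. The study lists an input control for each ChIP profile, while the way it was applied in peak calling is not given in the sources used here.

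Groups and batches follow the sample labels. Peaks were the same when at least 50 bp overlapped, and overlapping peaks of the 4 mutant antibody libraries were merged into regions. Arms are 2L, 2R, 3L, 3R, X and 4. Deciles and quartiles of a list are 10 and 4 successive parts of like length. Percentages carry exact (Clopper-Pearson) 95% intervals. Exact permutation tests over libraries were two-sided, with a threshold of 0.05, and treat libraries of a batch as independent. The labels name batches of chromatin but no separate embryo collections, so that p-values measure the spread between libraries. Peak numbers had 1 added before taking log2.

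Named regions are the 5 of lowest mean place in all 4 libraries and no input or pre-immune library, the 5 in all acf1 libraries and not in rsf-1, the 5 foremost in rsf-1 alone, the first of each list, and the 3 with the largest difference of place in each direction between the rsf-1 list and the best acf1 library. Regions on 2R were counted and not named. The libraries, rules and tests were chosen with earlier results of these data known. Alternatives were an overlap of at least 1 or 150 bp, the arms alone, leaving out peaks that the input of the batch also had, the first 1984 lines of every antibody list, stricter acf1 regions, other parts of the list, other control libraries and each acf1 library left out. Promoters and genes were not analysed, as only gene positions of Release 6 were at hand. The scripts (Python 3.11.15 with numpy 2.4.6, scipy 1.17.1, plots with matplotlib 3.10.9) were tested on simulated data.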

Additional observations from a re-analysis of the deposited data

Results flagged for a closer look

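A WT input library, replicate 2 (batch 2), stood apart from the other inputs in the share of the rsf-1 list that it called. It called 2.69% of the rsf-1 peaks, against 1.52% to 2.11% in the other 9 inputs and 1.70% to 2.11% in the other 6 WT inputs. It is also the longest input list, with 2359 peaks, and 6.10% of these were in the rsf-1 list. Its part in the comparison of acf1 libraries with inputs was not tested. Of 12 sets of values examined with Dixon's test, 2 were marked. They are nested, all inputs and WT inputs, and hold the same value, so that they count as 1 mark. At the 95% level used, chance is set to mark about 1 set in 20.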

How the results depend on the processing

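Over 94 combinations of result and alternative, 72 kept the direction and side of the threshold or stayed within the range set for counts and percentages. In the tests of peak number, overlap between groups, pre-immune serum, place and arms against other sequence, p cannot fall below the threshold. For these the side was fixed and only the direction could change. A changed overlap limit also cannot alter peak numbers. The tally is therefore no measure of how firmly these results hold. The regions called in both groups, 4224 in all, were 1482 with the first 1984 lines of every antibody list and 1304 when an acf1 region needed at least 2 libraries, and leaving out an acf1 library gave 1325 to 4207. The percent of acf1 regions with an rsf-1 peak was 49.2% with at least 150 bp, 63.0% on the arms, 35.5% with the first 1984 lines, 73.3% and 88.5% when 2 or all 3 libraries were needed, 80.6% without batch 4 (chosen after seeing the data) and 39.9% to 69.4% when an acf1 library was left out. The percent of rsf-1 regions with an acf1 peak was 69.3% with at least 150 bp, 74.7% with the first 1984 lines, 24.4% and 9.33% when 2 or all 3 acf1 libraries were needed, and 24.8% to 78.7% when an acf1 library was left out, the lowest without Rb2 replicate 2. Overlap between groups minus that within acf1 was -2.53 to 22.5 percentage points when an acf1 library was left out, and without Rb2 replicate 2 it reversed. The difference between acf1 antibody libraries and inputs passed the threshold on the arms (37.3 percentage points), without peaks of the own input (51.0, where the rsf-1 list also loses the peaks of its input, so that a lower share of the inputs follows from the setting), with the first 1984 lines (38.0) and without Rb1 (36.0). Without an acf1 library it ran from 10.2 to 36.0 (10.2 without Rb2 replicate 2). Set against the input of the same batch and averaged by batch (chosen after seeing the data), it was 21.4, with 4.22 in batch 4 and 38.6 in batch 5, and an exact sign-flip permutation test over 2 batches cannot go below the 0.5 it gave. The cause of these shifts was not tested, apart from the fewer libraries or lines used. When each position-sorted stretch was placed by its mean line (chosen after seeing the data), the difference between the first and last quartile of the list was again 63.3 percentage points. Leaving out the single rsf-1 library gives no value, and limiting the lists gives none for peak numbers. No paired analysis was possible because the acf1 and rsf-1 groups share no chromatin batch. A pairing by batch exists only between the acf1 libraries and their inputs.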
